A study of Drosophila melanogaster with 6 samples.

Results

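The genes described here were 176 of the 10969 tested genes, out of 17807 in the deposited table, whose transcripts were lower in mCherryRNAi replicates 2 and 3 than in each of the other 4 libraries by a set margin. They were selected on their values in all 6 libraries. The mean had to reach 10 normalized counts, and on log2(normalized count + 1) the higher of mCherryRNAi replicates 2 and 3 had to lie at least 1.5 below the lowest of the other 4 libraries. This distance is called the gap. Of 222 genes with such a gap, 46 were set aside by symbol, mostly cuticle genes with symbols starting Cpr (18), Lcp (9) and Ccp (5), and CG18609, CG8534, serp and verm by name. The levels below therefore describe the choice and are given without a test.

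RNA came from larvae with tmod knocked down in muscle (tmodRNAi, UAS-dcr2;;Dmef2-Gal4>UAS-tmodRNAi, 3 libraries) and from larvae with a control knockdown (mCherryRNAi, UAS-dcr2;;Dmef2-Gal4>UAS-mCherryRNAi, 3 libraries). Both genotypes carry the Mef2 driver, which is active in muscle, and extra Dicer-2, which strengthens RNA interference. Larvae were about 90 h old (late in the third instar), and each library pooled muscle-enriched lysate of 7 to 10 animals. One label field names adult body wall in place of larval muscle. The labels number biological replicates without saying how the pools were separated. The series title gives the question as how larval muscle degenerates when Tropomodulin, a cap of thin-filament ends, is lost. tmod itself had 13993, 13734 and 12980 normalized counts in tmodRNAi replicates 1 to 3, against 70528, 92366 and 75101 in mCherryRNAi replicates 1 to 3 (log2 fold change -2.54, SE 0.12, limma adjusted p = 0.0045). It lost that call in the limma fits without mCherryRNAi replicate 3, tmodRNAi replicate 2 or tmodRNAi replicate 3.

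Larval body wall muscles are multinucleate fibres that contract through sarcomeres and attach to the epidermis. A lysate enriched for them also holds epidermis, trachea, nerve, blood cells and fat. Late in the third instar the steroid hormone ecdysone ends feeding and prepares the epidermis for puparium formation, when one set of cuticle genes is replaced by another. A bulk library cannot tell fewer cells of a type from less RNA per cell.

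The median gap of the 176 genes was 1.90, with a range of 1.51 to 7.61 on the log2 scale. Their median level was 433, 605 and 541 normalized counts in tmodRNAi replicates 1 to 3. It was 269 in mCherryRNAi replicate 1, 36.2 in replicate 2 and 40.6 in replicate 3. Replicate 2 was the lower of this pair of controls for 109 genes and replicate 3 for 46. For 34 genes (19.3%, against 1.26% of all tested genes) both had at most 3 reads, and for 21 of these both had 0. The genes nearest the threshold were CG34280, CG12522 and dmrt11E inside it, each with a gap of 1.51. Just outside were CG5783 and Cyp49a1 at 1.49 and CG3746 at 1.48. Their mean counts had a median of 342 normalized counts, against 1044 over all tested genes. Their median exonic length was 1498 bp, against 1983 bp.

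**Figure D1:**
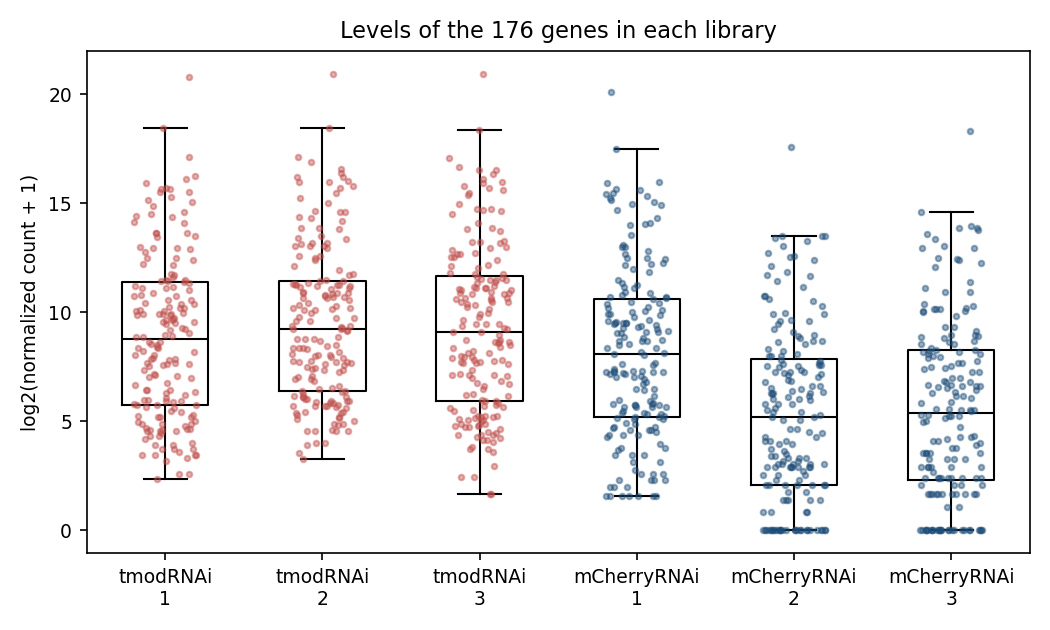
Levels of the 176 genes in each library on the log2(normalized count + 1) scale. Points are genes, boxes span the quartiles with the median as a line, and whiskers reach the farthest value within 1.5 box lengths. The medians were 433, 605 and 541 normalized counts in tmodRNAi, and 269, 36.2 and 40.6 in mCherryRNAi replicates 1 to 3.

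Marker genes of several tissues differed between these libraries. Summed over 8 muscle markers, one of which (Mhc) is among the 176 genes, levels were 6638600 to 7665200 normalized counts in tmodRNAi, and 4451100, 1345700 and 1819500 in mCherryRNAi replicates 1 to 3. The 6 tracheal markers gave 449810 to 468210 in tmodRNAi, and 399600, 136600 and 156390 in mCherryRNAi. That sum was carried by Gasp, serp and verm, of which serp and verm met the gap themselves and were set aside by name. The tracheal markers trh and btl were not low in mCherryRNAi replicates 2 and 3, btl with 942, 663 and 867 in tmodRNAi, against 937, 1256 and 1333 in mCherryRNAi. The 5 epidermal markers found, of 6 listed, summed to 101620 to 107030 in tmodRNAi, and to 126800, 819440 and 299010 in mCherryRNAi. The higher sums came from the tanning enzyme genes ple and Ddc, while kkv and stw were lower in mCherryRNAi replicates 2 and 3 than elsewhere and knk was nearly level. ple had 6549, 5058 and 7966 in tmodRNAi, against 6809, 529110 and 42090 in mCherryRNAi. Ddc had 6518, 5158 and 3835 in tmodRNAi, against 32184, 237750 and 195500 in mCherryRNAi. The 7 fat body markers summed to 306310, 983910 and 821090 in tmodRNAi, and to 167900, 269100 and 247760 in mCherryRNAi, so tmodRNAi replicate 1 was the lowest tmodRNAi library for them. The higher tmodRNAi sums came mainly from Lsp1alpha, Lsp1beta and Lsp1gamma. Fbp1 went the other way, with 37921, 69347 and 93929 in tmodRNAi, against 44712, 128180 and 122630 in mCherryRNAi. The groups overlapped for Fbp2. The 6 salivary gland markers summed to 636, 247 and 3263 in tmodRNAi, and to 109.8, 138 and 814 in mCherryRNAi. Muscle markers were abundant in each library, as the muscle label has it, and 7 midgut markers summed to at most 71.7. Recovered reads ranged from 83824273 to 110151028, and the 10 most abundant genes took 23.3% to 24.5% of normalized counts in tmodRNAi, and 24.2%, 16.9% and 18.8% in mCherryRNAi replicates 1 to 3. The part of these differences in the levels below was not tested. The labels name no batch.

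The widest gaps belonged to a set of genes known mainly by CG numbers. CG13230 had 822, 2460.0 and 3566 normalized counts in tmodRNAi, against 2288, 3.22 and 2.14 in mCherryRNAi. CG30457 had 7761, 18648 and 9476 in tmodRNAi, against 8136, 48.3 and 126 in mCherryRNAi. For both, mCherryRNAi replicate 1 lay inside the tmodRNAi range while the other 2 controls lay at least 5.93 below the lowest of the remaining libraries on the log2 scale. CG11350 had 36563, 140704 and 103769 in tmodRNAi, against 39177, 546 and 1126 in mCherryRNAi. CG10953 had 46293, 96299 and 95468 in tmodRNAi, against 34497, 165 and 1129.9 in mCherryRNAi. CG7299 had 29924, 65933 and 64843 in tmodRNAi, against 32254, 973 and 464 in mCherryRNAi. For these 3 genes mCherryRNAi replicates 2 and 3 stood at 165 to 1130 normalized counts, where each other library had at least 29924. The gaps of CG13705, CG14419, CG8736 and CG15515 were 4.90, 4.81, 4.73 and 4.49, and tmodRNAi replicate 1 was the lowest tmodRNAi library for each. CG45207 differed in that mCherryRNAi replicate 1 was also well below tmodRNAi, with 377, 654 and 541 in tmodRNAi, against 89.2, 0 and 4.28 in mCherryRNAi.

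**Figure D2:**
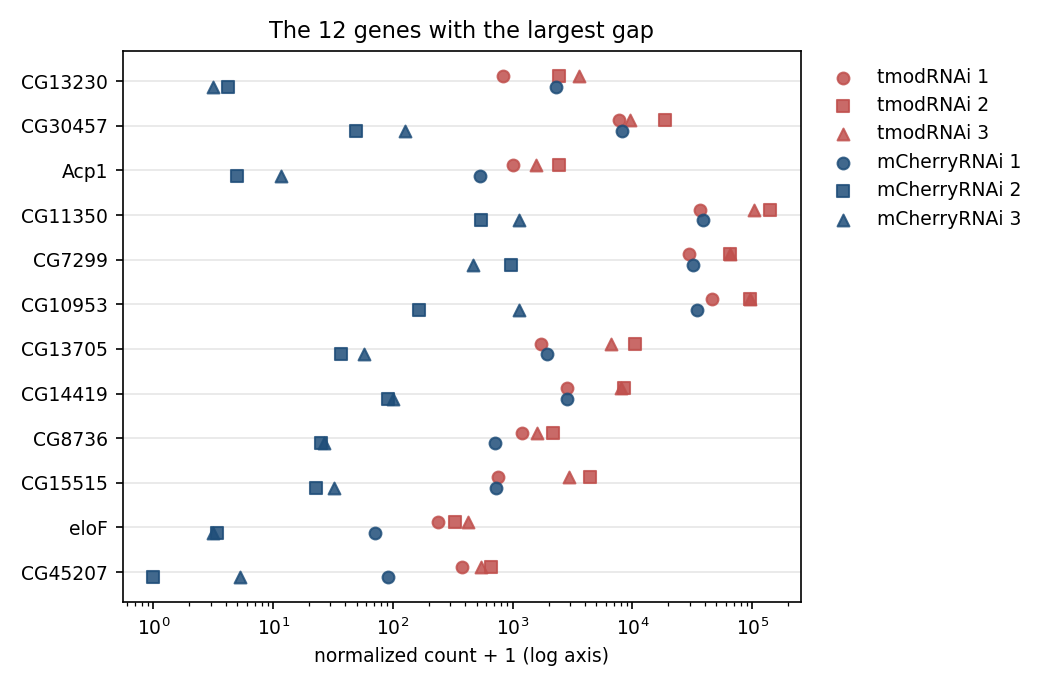
Normalized counts plus 1 on a log axis for the 12 genes with the largest gap, with tmodRNAi points above mCherryRNAi points in each row and symbols for the replicate. mCherryRNAi replicates 2 and 3 lie apart from the other 4 libraries, by 7.61 on the log2 scale for CG13230 and 4.10 for CG45207.

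Per kilobase of exon, the highest mean level was that of CG32241, with a mean of 254846 normalized counts per kb in tmodRNAi and 53796 per kb over the 3 mCherryRNAi libraries. Its counts were 364435, 355209 and 331594 in tmodRNAi, against 186244, 10923 and 24739.8 in mCherryRNAi. Mhc came next on this scale, followed by CG7465, CG9757 and CG32603. CG9757 had 70285, 85134 and 83026 in tmodRNAi, against 26769, 3222 and 4265 in mCherryRNAi. CG7465 was the exception in shape, since tmodRNAi replicate 2 was nearest to mCherryRNAi replicate 1. It had 142069, 75302 and 140167 in tmodRNAi, against 65037, 5944 and 16144 in mCherryRNAi.

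Known muscle genes were few among the 176. Mhc, the muscle myosin heavy chain gene, had 1787581, 1988965 and 2022988 normalized counts in tmodRNAi, against 1136083, 193460.5 and 327678 in mCherryRNAi. The log2 contrast of the groups was 2.21 (SE 0.66), and mCherryRNAi replicate 1 lay 0.76 below the tmodRNAi mean. Scgdelta, which encodes the delta-sarcoglycan subunit of the dystrophin-associated complex, had 1505, 2177 and 2237 in tmodRNAi, against 965, 151 and 184 in mCherryRNAi. The protein O-mannosyltransferase gene rt, whose enzyme glycosylates dystroglycan, had 2806, 2752 and 2625 in tmodRNAi, against 1761, 484 and 489.6 in mCherryRNAi. These genes showed the same order of libraries, with mCherryRNAi replicate 1 a little under the tmodRNAi range and replicates 2 and 3 far under it.

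The transcription factor genes Pdp1, whose PAR-domain product acts on muscle genes, and Hr38, a nuclear receptor gene of the NR4A type, shared this order. Pdp1 had 5731, 6212 and 7446 in tmodRNAi, against 3714, 708 and 900.1 in mCherryRNAi. Hr38 had 5828, 5703 and 5374 in tmodRNAi, against 4802, 769.9 and 1161 in mCherryRNAi, so that its single higher control was only 0.23 under the tmodRNAi mean. The exons of Hr38 overlap CG2617 on the other strand, and whether counting used strand is not given in the sources used here. Of 30 tested sarcomere genes, Mhc alone belonged to the 176, while 3 others that met the gap (Act57B, TpnC25D and TpnC47D) were set aside by symbol. In that list 26 genes had a gap above 0 (86.7%, against 27.9% of all tested genes), and the median gap was 0.99 against -0.29 for all tested genes. By limma 16 of the 30 were called higher (53.3%) and 3 lower in tmodRNAi, where 10.9% of all tested genes were called higher and 23.8% in either direction. The 16 became 26 without mCherryRNAi replicate 1 and 0 without any one of the other 5 libraries, with 18 to 24 at an unadjusted p under 0.05. They became 7 with quantile normalization, 6 when genes of any level were tested, 3 without the trend, 4 in edgeR and 26 in DESeq2. Calls over all 10969 tested genes moved too. The 1195 called higher became 2464 without mCherryRNAi replicate 1 and 0 to 37 without any one of the other 5 libraries.

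Genes with a known role in mitochondria or carbohydrate metabolism numbered 5. The citrate synthase gene kdn, which acts at the entry of the citric acid cycle, had 46329, 56303 and 49921 in tmodRNAi, against 44899, 9900.0 and 14934 in mCherryRNAi. Mpcp1, a mitochondrial phosphate carrier gene, had 25054, 25074 and 26308 in tmodRNAi, against 17265, 2748 and 5386 in mCherryRNAi. The glycogen branching enzyme gene AGBE had 17831, 21079 and 25964 in tmodRNAi, against 16709.7, 3628 and 4967 in mCherryRNAi. In these 3 genes mCherryRNAi replicate 1 was below each tmodRNAi library but nearer to them than to replicates 2 and 3, of which replicate 2 was the lower. Gpo3, for a mitochondrial glycerol-3-phosphate dehydrogenase, reached only 35.4, 50.1 and 47.4 in tmodRNAi, against 23.5, 6.44 and 4.28 in mCherryRNAi. Sodh-2 (Sodh2 in the annotation), a sorbitol dehydrogenase gene, had 12561, 11584 and 13478 in tmodRNAi, against 6502, 1723 and 2215 in mCherryRNAi. Of 84 other energy metabolism genes listed and tested, 0 reached a gap of 1.5, yet 75 had a gap above 0 (89.3%, against 27.9% of all tested genes). Their median gap was 0.66, against -0.29 for all tested genes.

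Genes with a known role in cuticle and chitin, beyond those set aside by symbol, numbered 5. Acp1, named for adult cuticle protein, had 996, 2454 and 1574 in tmodRNAi, against 529, 4.02 and 10.7 in mCherryRNAi. Edg78E, an ecdysone-dependent gene for a structural cuticle protein, had 465, 619 and 211 in tmodRNAi, against 155, 18.5 and 18.2 in mCherryRNAi. The chitin-binding protein gene obst-E had 53808, 65468 and 44783 in tmodRNAi, against 41119, 6077 and 7884 in mCherryRNAi. Each of these had its highest value in tmodRNAi replicate 2. The chitinase gene Cht6 had 52373, 64878 and 62609.5 in tmodRNAi, against 43837, 11724 and 8552 in mCherryRNAi. Cda4, for a chitin deacetylase, had 21547, 25558 and 27126 in tmodRNAi, against 20473, 5398 and 5759.7 in mCherryRNAi. The tmodRNAi mean exceeded mCherryRNAi replicate 1 by a median of 0.45 over the 5 genes (range 0.27 to 1.56). In the wider list of 45 tested cuticle genes outside the large families, 20 had a gap above 0 (44.4%, against 27.9% of all tested genes). By limma, 3 of the 45 (6.67%), Edg78E among them, were called higher and 8 (17.8%) lower in tmodRNAi. Over all tested genes these shares were 10.9% and 12.9%.

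**Figure D3:**
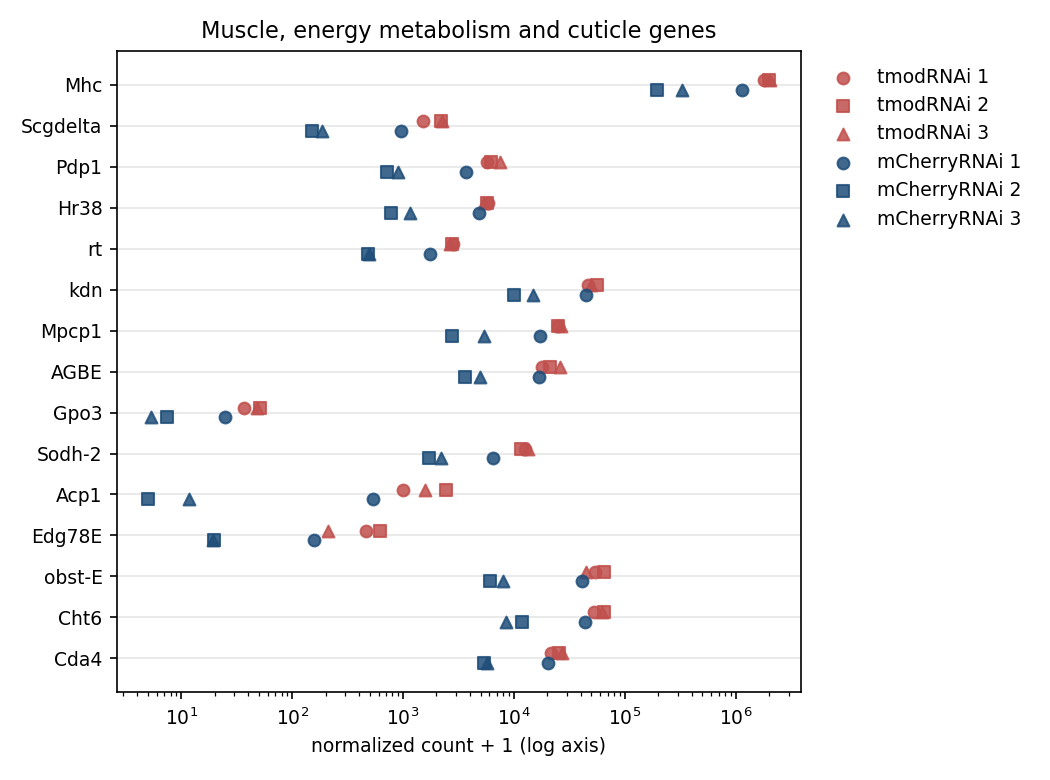
Normalized counts plus 1 on a log axis for muscle genes (Mhc to rt), energy metabolism genes (kdn to Sodh-2) and cuticle and chitin genes (Acp1 to Cda4), with tmodRNAi points above mCherryRNAi points in each row. In each gene mCherryRNAi replicate 1 is nearer to the tmodRNAi points than to mCherryRNAi replicates 2 and 3, which for Acp1 stood at 4.02 and 10.7.

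In 7 genes of lipid, amino acid and pyrimidine metabolism mCherryRNAi replicate 1 was lower than every tmodRNAi library. That order also held for each gene of the muscle, energy metabolism and cuticle groups above, and for 137 of the 176 genes in all. eloF, a very long chain fatty acid elongase gene, had 235, 327 and 422 normalized counts in tmodRNAi, against 69.6, 2.41 and 2.14 in mCherryRNAi. Its single higher control lay 2.18 under the tmodRNAi mean on the log2 scale. Faa, for the fumarylacetoacetase that ends tyrosine breakdown, had 789, 1825 and 1400.3 in tmodRNAi, against 266, 32.2 and 58.8 in mCherryRNAi. The pyrimidine breakdown gene su(r) had 579.9, 1109 and 886 in tmodRNAi, against 289, 88.5 and 94.1 in mCherryRNAi. Over the 7 genes of this group the tmodRNAi mean exceeded mCherryRNAi replicate 1 by a median of 1.52 (range 0.87 to 2.25). The other 4 were Agpat4, CG12512 (Acsf2 in the annotation), CG10361 (Gcat) and CG5599 (Dbct), each with mCherryRNAi replicate 1 below the tmodRNAi range.

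Enzymes that modify foreign and endogenous small molecules gave 9 genes. The cytochrome P450 genes Cyp4e3, Cyp6w1, Cyp4p3 and Cyp6a23 code for oxidizing enzymes. Cyp4e3 had 3188, 7868 and 4527 in tmodRNAi, against 1601, 217 and 170.0 in mCherryRNAi. Cyp6a23 had 2719, 3459 and 4236 in tmodRNAi, against 927, 258 and 312 in mCherryRNAi. Both were graded in the controls, with replicate 1 between the tmodRNAi libraries and the other pair. Ugt35A1, a UDP-glycosyltransferase gene, had 3359, 3914 and 4664 in tmodRNAi, against 1409, 300.1 and 375 in mCherryRNAi. The esterase genes alpha-Est2 and alpha-Est10, the glutathione transferase gene GstD4 and the aldehyde oxidase gene AOX2 completed the set, with gaps of 1.82, 1.91, 1.58 and 1.54.

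Outside the chosen genes the P450 family was examined as a list. Of the 71 tested genes of that list that were not among the 176, 28 were called higher (39.4%) and 1 lower in tmodRNAi by limma. Adjustment was by Benjamini-Hochberg over all genes. The median log2 fold change of the 71 was 0.65, against 0.02 for all tested genes. The list was drawn by symbol, so the 71 include Cyp1, which is not a P450 gene, and Cyp6t2Psi, a pseudogene by its symbol. Neither was called. Over all tested genes the share called higher was 10.9%. Other lists also exceeded it, at 53.3% of sarcomere genes, 40% of fat body genes and 40% of male germline genes. Serpins and clip-domain proteases reached 32.3%. The sarcomere list holds 1 of the 176 and the male germline list 2. The fat body sums given above were higher in each tmodRNAi library than in each control, though Fbp1 and Fbp2 singly were not. The part of fat body RNA in the P450 and lipid gene levels was not tested. The outer neighbour of the threshold, Cyp49a1, had 311, 430.4 and 598 in tmodRNAi, against 146, 51.5 and 36.3 in mCherryRNAi (log2 fold change 2.71, SE 0.54, adjusted p = 0.0314). Cyp6a9, chosen after its values were seen, had 642, 756 and 971 in tmodRNAi, against 140.2, 78.0 and 77.0 in mCherryRNAi (log2 fold change 3.03, SE 0.29, adjusted p = 0.0281). The one P450 gene called lower was Cyp6a17, with 248, 243 and 313 in tmodRNAi, against 2096, 1196 and 1167 in mCherryRNAi (log2 fold change -2.42, SE 0.26, adjusted p = 0.0281). Without mCherryRNAi replicate 1, 36 of the 71 were called higher by limma, without tmodRNAi replicate 1 there were 3, and without any one of the other 4 libraries there were 0, with 29 to 32 at an unadjusted p under 0.05. Cyp6a17 lost its call in each of those 5 fits. Of all 10969 tested genes, 2464 were called higher without mCherryRNAi replicate 1, 37 without tmodRNAi replicate 1 and 0 in the other 4 fits. With all libraries limma without the trend called 13 of the 71 higher, edgeR 21 and DESeq2 34. P450 genes of one cluster resemble each other in sequence, and how the authors' counting shared reads among them is not given in the sources used here.

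Proteases and immune genes took several shapes. The trypsin gene gammaTry belongs to a cluster of closely similar genes, and CG30025 is its neighbour, so their separate counts are uncertain. gammaTry had 66.7, 51.1 and 277 in tmodRNAi, against 327, 6.44 and 6.41 in mCherryRNAi. CG30025 had 12.1, 13.9 and 61.7 in tmodRNAi, against 39.2, 0 and 0 in mCherryRNAi. The chymotrypsin-like gene yip7 had 76.8, 23.4 and 207 in tmodRNAi, against 158, 1.61 and 2.14 in mCherryRNAi. For all 3, tmodRNAi replicate 3 and mCherryRNAi replicate 1 were the high libraries. Midgut markers were low in each library (28.9 to 71.7 summed over 7 genes). Of 15 tested digestive proteases, 6 met the gap, including 4 Jon genes that were set aside. Over all 10969 tested genes 222 met it.

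IM4 (Dso1 in the annotation), a Toll-induced immune peptide gene, had 266, 84.2 and 201 in tmodRNAi, against 5.88, 0 and 0 in mCherryRNAi. Its mCherryRNAi replicate 1 was lower relative to tmodRNAi than in any other of the 176 genes, by 4.59 on the log2 scale. The C-type lectin gene lectin-22C had 11574, 14899.6 and 14946 in tmodRNAi, against 4889.6, 769.9 and 1074 in mCherryRNAi. LUBEL, for a ligase that builds linear ubiquitin chains, had 5406, 5322 and 6715 in tmodRNAi, against 1925, 609 and 489 in mCherryRNAi. For both, mCherryRNAi replicate 1 lay between tmodRNAi and the other pair of controls. CG4847 (CtsK2 in the annotation) was among the 8 genes with the highest mean count, with 79153, 76187 and 70368 in tmodRNAi, against 62579, 11527 and 14871 in mCherryRNAi. Among 35 tested immune effector genes IM4 alone belonged to the set, and 8 had a gap above 0 (22.9%, against 27.9% of all tested genes).

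Neural genes included Gad1, the glutamate decarboxylase gene that makes the transmitter GABA. It had 19.2, 317 and 12.1 in tmodRNAi, against 151, 0 and 0 in mCherryRNAi, so tmodRNAi replicate 2 and mCherryRNAi replicate 1 stood apart from all other libraries. Proc, for the neuropeptide proctolin, had 137, 430.4 and 74.98 in tmodRNAi, against 147, 20.9 and 8.55 in mCherryRNAi. Pdf, for the pigment-dispersing factor peptide, had 42.4, 68.2 and 19.8 in tmodRNAi, against 41.2, 4.83 and 2.14 in mCherryRNAi. All 8 genes placed under nervous system and chemosensation had their highest tmodRNAi value in replicate 2. In the same libraries 5 neuron markers summed to 3387, 6046 and 3454 in tmodRNAi, and to 3051, 2387 and 2632 in mCherryRNAi. elav, nSyb and para had gaps of 0.38, 0.07 and 0.16, but Syt1 and brp had gaps of -0.25 and -0.55. Syt1 was lowest in mCherryRNAi replicate 1, with 632, 1556 and 948 in tmodRNAi, against 605, 720 and 692 in mCherryRNAi. The part of the neuron markers in these levels was not tested. The gene fru, a transcription factor gene of sexual identity, had the highest counts of this group, with 12753, 14822 and 14518 in tmodRNAi, against 8561, 2323 and 2709 in mCherryRNAi. Obp83g, an odorant-binding protein gene, had 8091, 9405 and 8093 in tmodRNAi, against 5718, 801 and 1082 in mCherryRNAi. Odorant receptor gene Or67b reached only 12.1 to 22.4 in tmodRNAi and at most 4.90 in mCherryRNAi, and its exons overlap Cyp40 and CG3335 on the other strand.

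The 5 male germline genes were each highest in tmodRNAi replicate 2. S-Lap4, a sperm leucyl aminopeptidase gene, had 36.4, 165 and 44.1 in tmodRNAi, against 3.92, 0 and 0 in mCherryRNAi. Mst77F, for a protein that packs sperm chromatin, had 80.8, 199 and 69.5 in tmodRNAi, against 52.0, 16.1 and 12.8 in mCherryRNAi. The testis genes tHMG1, bb8 and ocn reached 40.5, 41.6 and 51.1 in tmodRNAi replicate 2 and at most 14.1 in tmodRNAi replicates 1 and 3. Their mCherryRNAi replicate 1 values were 9.80, 2.94 and 1.96, and mCherryRNAi replicates 2 and 3 had 0 reads for each. Testis markers summed to 90.9, 381 and 91.5 in tmodRNAi, and to 51.0, 41.8 and 39.6 in mCherryRNAi. The higher tmodRNAi sums came mainly from loopin-1, with 40.4, 263 and 34.2 in tmodRNAi, against 0, 1.61 and 0 in mCherryRNAi. dj had 11.1, 54.3 and 17.6 in tmodRNAi, against 1.96, 1.61 and 2.14 in mCherryRNAi. For Mst87F the groups overlapped, with 37.4, 56.5 and 38.6 in tmodRNAi, against 49.0, 37.8 and 37.4 in mCherryRNAi. The part of these markers in the gene levels was not tested. Of 20 tested male germline genes 8 were called higher (40%, against 10.9% of all tested genes) and 1 lower by limma, with a median log2 fold change of 2.81. The 20 include S-Lap4 (called) and Mst77F (not called), and these 2 were chosen on the same values. Of 37 listed genes found, only the 20 reached a mean of 10 over all libraries. A gene near 0 in the controls could reach it through tmodRNAi values alone, so the share and the median in part describe the filter. The 8 became 11 without mCherryRNAi replicate 1 and 0 without any one of the other 5 libraries, with 11 to 14 at an unadjusted p under 0.05, and DESeq2 called 14. With a mean of at least 50 required, 7 of the list were tested and 2 called higher. Of all 10969 tested genes, 2464 were called higher without mCherryRNAi replicate 1 and 0 to 37 without any one of the other 5 libraries.

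The 3 tmodRNAi libraries differed among themselves. tmodRNAi replicate 2 was the highest tmodRNAi library for 84 of the 176 genes, replicate 3 for 75 and replicate 1 for 17. tmodRNAi replicate 1 was the lowest of them for 108 genes (61.4%, against 32.5% of all tested genes). For 22 genes (12.5%, against 4.46% of all tested genes) replicate 2 exceeded both others by at least 1 on the log2 scale, and 15 of the 22 had 0 reads in mCherryRNAi replicates 2 and 3. They included Gad1, its neighbour CG14989, the 5 male germline genes and CG12699, which had 43.4, 249 and 35.3 in tmodRNAi, against 3.92, 0 and 0 in mCherryRNAi. CG12239, named after its values were seen, had 14.1, 218 and 12.1 in tmodRNAi, against 62.7, 2.41 and 3.21 in mCherryRNAi. Replicate 3 exceeded both others by that margin for 6 genes, among them gammaTry, CG30025 and yip7, and replicate 1 for CG12310 alone, named after its values were seen, with 2239, 92.7 and 35.3 in tmodRNAi, against 23.5, 3.22 and 6.41 in mCherryRNAi.

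**Figure D4:**
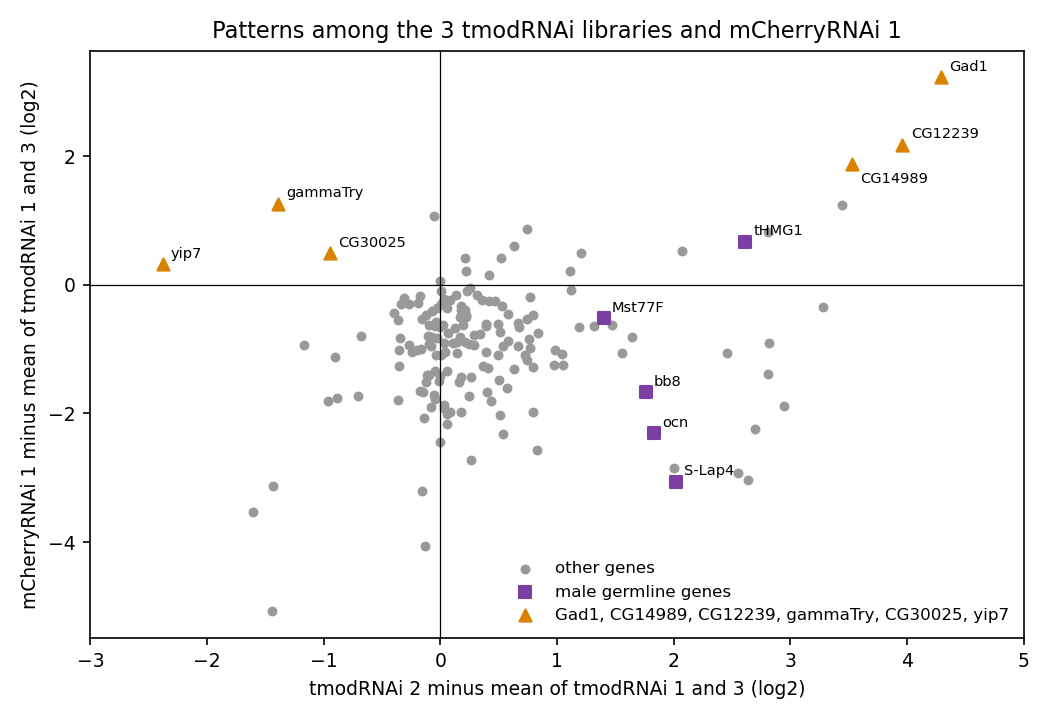
Each point is one of the 176 genes. The horizontal axis gives tmodRNAi replicate 2 and the vertical axis mCherryRNAi replicate 1, each minus the mean of tmodRNAi replicates 1 and 3 on the log2(normalized count + 1) scale. Most genes lie near 0 on the horizontal axis and below 0 on the vertical one, the 5 male germline genes lie to the right, and Gad1, CG12239 and CG14989 lie farthest into the upper right corner.

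The groups were then set against each other through mCherryRNAi replicate 1, the control with the higher levels. It lay below all tmodRNAi libraries for 137 genes (77.8%, against 35.9% of all tested genes), within their range for 35 and above them for 4, namely gammaTry, CG43668, lncRNA:CR43909 and PIP82, the last 3 named after their values were seen. The difference between the tmodRNAi mean and mCherryRNAi replicate 1 had a median of 0.95 on the log2 scale. For tmodRNAi replicates 1 to 3 singly the median was 0.65, 1.20 and 1.05 (SD 0.28, n = 3). Over all tested genes the median was 0.01. The difference reached 1 for 84 genes and 2 for 25, and was below 0 for 16. It ranged from -1.79 for Gad1 to 4.59 for IM4. CG5418 and CG12699 came next to IM4, CG5418 with 132, 163 and 243 in tmodRNAi, against 9.80, 1.61 and 2.14 in mCherryRNAi. This control is 1 library, so the difference has no replicate check on its side. The rule also used its values and those of the tmodRNAi libraries. The shares and medians therefore describe the chosen genes and were not tested.

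**Figure D5:**
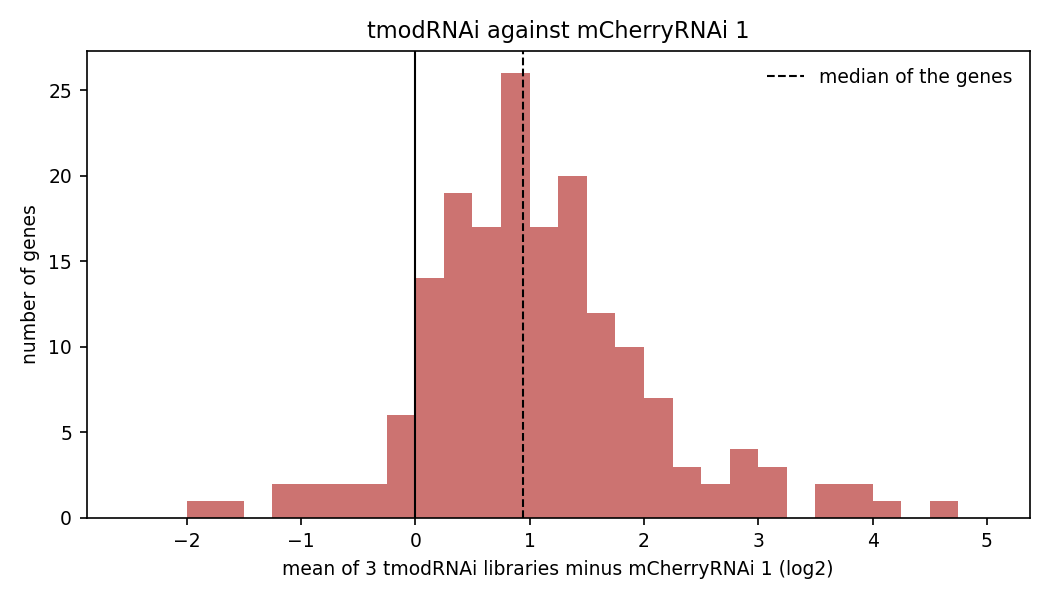
Histogram of the tmodRNAi mean minus mCherryRNAi replicate 1 on the log2(normalized count + 1) scale for the 176 genes, in bins of equal width. The dashed line is the median, 0.95, and 16 genes lie below 0.

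In the comparison of all libraries, 82 of the 176 genes were called higher in tmodRNAi by limma (adjusted p under 0.05) and 0 lower, where 10.9% of all tested genes were called higher. Groups did not overlap for 137 of the 176, with tmodRNAi higher, against 25% of all tested genes. Both figures rest on the values that chose the genes. The 82 called genes all had mCherryRNAi replicate 1 below the tmodRNAi range, and their median difference from that library was 1.49, against 0.46 for the 94 genes not called. Of the 12 genes with the largest gap, 2 were called (eloF and CG45207). Called members numbered 171 without mCherryRNAi replicate 1, where 2464 of all 10969 tested genes were called higher. Without any one of the other 5 libraries 0 members were called, and 0 to 37 of all tested genes were called higher. In those 5 fits 94 to 117 members had an unadjusted p under 0.05, as did 3227 to 4078 of all tested genes in either direction. These counts of members rest on the same values.

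By position, 33 of the 176 genes (18.8%) lay within 10 kb of another of them in BDGP6.54, against 583 of 10734 other tested genes (5.43%) that lay as near to one of the 176. They formed 15 runs, 3 of which held 3 genes. The first run was Faa, Gad1 and CG14989 on chromosome 3L from 4072032 to 4092706. The spans of Gad1 and CG14989 overlap on opposite strands, but their annotated exons do not overlap. Both genes had high values in tmodRNAi replicate 2 and mCherryRNAi replicate 1, CG14989 with 52.5, 599.8 and 49.6 in tmodRNAi, against 189, 3.22 and 4.28 in mCherryRNAi. Faa, the remaining gene of that run, did not share them.

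The second run, eloF, CG16904 and CG9459 on 3R from 9814161 to 9818395, held genes with similar profiles. CG16904 had 61.6, 124 and 136 in tmodRNAi, against 25.5, 0 and 2.14 in mCherryRNAi. CG9459 had 223, 347 and 384 in tmodRNAi, against 87.2, 8.04 and 0 in mCherryRNAi. In each of the 3 genes tmodRNAi replicate 3 was highest and mCherryRNAi replicate 1 lay 1.82 to 2.18 under the tmodRNAi mean. The run CG4962, CG4982 and CG13043 on 3L from 16294711 to 16305870 was less uniform. CG4962 had 23275, 25186 and 27088 in tmodRNAi, against 11764, 1455 and 1942 in mCherryRNAi. CG4982 had 84.9, 97.0 and 137 in tmodRNAi, against 33.3, 8.04 and 10.7 in mCherryRNAi, and CG13043 had 4779, 6177 and 5933 in tmodRNAi, against 4062, 968 and 1044 in mCherryRNAi. Runs of a pair joined several of the genes with wide gaps, Acp1 with CG7214, CG30457 with CG10953, and CG7465 with CG11350. By chromosome arm the genes numbered 35 on 2L, 31 on 2R, 39 on 3L, 48 on 3R and 23 on X.

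By kind, 166 of the 176 genes code for protein and 10 are noncoding RNA genes. The table gives a CG number as the symbol of 102 of them (58.0%, against 37.3% of tested genes). The annotation renames 5 of the 102, and the other 97, apart from CG30025, described with the proteases, are given no function here. Among the noncoding genes, the highest counts were those of lncRNA:CR44407, with 2276, 1691 and 2189.7 in tmodRNAi, against 1642, 411 and 501 in mCherryRNAi. The antisense gene asRNA:CR46005 overlaps l(3)mbn, also one of the 176, on the other strand, and reads of the pair cannot be told apart without strand. In all, exons of 30 of the genes overlap another annotated gene, Scgdelta, Cht6, Sodh-2 and alpha-Est2 among them.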

How the data were processed

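Gene expression was measured in 3 tmodRNAi and 3 mCherryRNAi libraries, prepared from Trizol extracts with a SMARTer kit and read as pairs of 50 nt, per the labels. The authors deposited 1 table of normalized counts, here a signal that is never negative, for 17807 genes. The submitters' processing notes name DESeq2 1.30.1 and dm6; the aligner, counter, annotation and strand setting are not given in the sources used here. In each library 100% of the values were whole multiples of 1 read (tolerance 0.001 reads), which gave 83824273 to 110151028 reads per library.

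Genes with a mean of at least 10 were tested with limma 3.58.1 (trend, R 4.3.3) on log2(normalized count + 1), so fold changes of low genes are understated, with Benjamini-Hochberg adjustment over all 10969. On the recovered reads edgeR 4.0.16 (quasi-likelihood test) called 2417 genes and DESeq2 1.42.0 called 4364. In simulated data on 10969 genes with 200 changed by 2 on the log2 scale for tmodRNAi against mCherryRNAi, limma recovered 156 with 12 false calls, edgeR 156 with 10 and DESeq2 176 with 68. The simulation drew genes independently of each other and gave no single library a shift over many genes. Its false calls therefore cannot be carried over to these libraries. Alternatives were other pseudocounts, filters, scalings, thresholds and tools, a replicate block and leaving out each library. Counts of reads between replicates differed by more than sampling noise, so each was counted as its own sample. Coordinates, overlaps and symbols come from Ensembl BDGP6.54, which had 17710 of the identifiers.

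The 176 genes, the role groups and the 29 lists were chosen with earlier results of these data known. Genes named were tmod, the 12 with the largest gap, the 8 with the highest mean, up to 3 per list, the 3 highest and 3 lowest in mCherryRNAi replicate 1 against tmodRNAi, the 3 on each side of the threshold and runs of at least 3 neighbours. Other genes named in the account of a role were chosen after their values were seen. With 3 libraries a group, an exact permutation test cannot go below 0.1, so none was used for single genes. P-values measure only the spread between these libraries, which may be technical.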

Additional observations from a re-analysis of the deposited data

How the results depend on the processing

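The number of genes called between tmodRNAi and mCherryRNAi was 2613 by limma (1195 higher, 1418 lower). It was 954 without the trend, 4364 in DESeq2, 2 at an adjusted p under 0.01, and 0 to 5203 when each library was left out (3227 to 3525 genes had an unadjusted p under 0.05 in the 3 limma fits with 0). Median centring gave 1027 higher and 1819 lower. Called members were 82, but 24 without the trend, 35 in edgeR, 0 at 0.01 (150 had an unadjusted p under 0.05) and 0 to 171 with a library left out. In the 5 fits with 0, limma gave 94 to 117 members at an unadjusted p under 0.05. All tested genes at that level, in either direction, numbered 3227 to 4078 in those fits and 4901 in the main fit. The members were chosen on these values, so their counts describe the choice. Listed genes called were 228, but 95 without the trend, 391 in DESeq2, 1 at 0.01 and 0 to 456 with a library left out. The cause was not tested. Same-numbered libraries correlated at -0.06, 0.02 and -0.02 in their deviations. These values show no pairing by replicate number, but so few libraries cannot exclude it. With a replicate block limma called 0 genes, 0 members and 0 listed genes, with 3969 genes and 143 members at an unadjusted p under 0.05.

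The rule itself gave 106 genes with a pseudocount of 10 and 73 with a gap of 2, all of them among the 176. A gap of 1 gave 300, the limit (413 before it). Leaving out a library gave 179 to 300, with 300 without mCherryRNAi replicate 1 or 3 (462 and 353 before the limit) and 273 without replicate 2. The median difference from mCherryRNAi replicate 1 stayed between 0.88 and 1.08 in 9 alternatives. Among 896 single-gene results of the named genes under alternatives, 0 reversed, 185 lost and 43 gained a call. Depth limits the 34 genes with at most 3 reads in mCherryRNAi replicates 2 and 3, where a gap depends on the pseudocount.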
